A study of Mus musculus with 4 samples.

Results

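Genes for lysosomal hydrolases, for proteins of the lysosomal membrane and for 2 regulators of the organelle were examined in sorted mouse mammary epithelial cells with and without doxycycline (dox). The set was a fixed list of 35 genes, chosen with earlier results of these data known. Every probe set that the array annotation assigns to one of them was taken. For 34 of the 35, a probe set with a single gene symbol was found, out of 18194 genes with such a probe set on the array. No named probe set was found for Cd63, a tetraspanin of late endosomes, which was not analysed here. Each gene was represented by the brightest of its probe sets, and 33 of the 34 passed the filter on low values, a log2 level of 3.63 or more on at least 1 array. The remaining one, Ctss, encoding cathepsin S, lay at the floor of the deposited values on all arrays.

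The cells were of Comma D beta, a mouse mammary epithelial line, grown in DMEM F12 that contained EGF (10 ng/ml), insulin (5 ug/ml) and 2% serum. The untreated cultures received no dox and the treated cultures received dox at 100 ng/ml for 1 day. Cells were then labelled for Sca1, a surface protein used to enrich mammary progenitors, and flow cytometry yielded 200k cells of each fraction. This gives 4 groups of 1 array each, namely the Sca1+ and the Sca1- fraction without dox and the same fractions with it. All groups come from this 1 line, and what dox switches on in it is not stated in the labels, although the series title names the transcription factor Bcl11b. The Sca1 gene had no named probe set, so the fractions follow the labels. Of 10 mammary epithelial marker genes, all 10 passed the filter, among them Krt14, Cdh1 and Epcam.

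Lysosomes are acidic organelles in which hydrolases break down proteins, sugar chains and lipids delivered by endocytosis and autophagy. Most of the soluble enzymes receive a mannose 6-phosphate tag in the Golgi and are carried to the lysosome by receptors for that tag, whereas beta-glucocerebrosidase travels with Scarb2. The transcription factor TFEB and its relatives bind the CLEAR element, a sequence with a CACGTG core, near many of these genes and raise their transcription when the factor enters the nucleus. In the mammary gland, lysosomal proteases are best known from the involution that follows weaning.

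Upstream sequences of 4 genes are shown because they differ both in the CACGTG core and in the response to dox. Ctsd and Sgsh held the core and were lower with dox, Lamp1 held it 4 times and had dox differences near 0, and Gusb lacked it and was much lower with dox. The sequences are from RefSeq, build GRCm38.p6, and cover the 250 bases before the annotated start, 5′ to 3′, with each CACGTG in capitals.
Ctsd, chr7:142387828-142388077, minus strand: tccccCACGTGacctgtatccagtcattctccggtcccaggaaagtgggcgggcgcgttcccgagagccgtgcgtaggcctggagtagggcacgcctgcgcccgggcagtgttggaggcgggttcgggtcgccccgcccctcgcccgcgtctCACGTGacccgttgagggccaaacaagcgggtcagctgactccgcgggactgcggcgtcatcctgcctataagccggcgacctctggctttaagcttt
Sgsh, chr11:119355511-119355760, minus strand: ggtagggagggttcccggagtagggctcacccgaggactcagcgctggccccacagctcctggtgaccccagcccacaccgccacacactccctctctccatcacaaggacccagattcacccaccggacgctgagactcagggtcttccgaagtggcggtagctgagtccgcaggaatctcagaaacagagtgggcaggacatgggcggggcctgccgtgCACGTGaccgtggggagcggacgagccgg
Lamp1, chr8:13158911-13159160, plus strand: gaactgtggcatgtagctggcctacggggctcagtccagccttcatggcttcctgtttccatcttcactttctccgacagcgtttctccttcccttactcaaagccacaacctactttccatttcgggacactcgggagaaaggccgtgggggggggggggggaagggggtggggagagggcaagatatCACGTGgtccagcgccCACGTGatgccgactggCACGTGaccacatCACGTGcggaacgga
Gusb, chr5:130003050-130003299, minus strand: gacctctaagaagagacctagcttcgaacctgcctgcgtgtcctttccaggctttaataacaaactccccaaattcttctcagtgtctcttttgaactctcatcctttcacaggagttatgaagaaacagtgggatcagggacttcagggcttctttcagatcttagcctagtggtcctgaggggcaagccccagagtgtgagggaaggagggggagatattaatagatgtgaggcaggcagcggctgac

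The core was searched in RefSeq windows of 300 bases, from 250 before to 50 after the start. Windows matched 31 of the list's genes by symbol, and the unmatched ones were Ctsb, Npc1, Asah1 and Ctsh. CACGTG, which reads the same on both strands, occurred in 10 of the 31 genes, against 8.09% of all 27025 genes with a window. The longer GTCACGTG, which contains the core and was searched on both strands, occurred in 8 of the 31, against 2.55% of all genes. The other 7 genes with the core are shown by 1 site each, with 12 bases on each side, the core in capitals.
Naglu, chr11:101070009-101070038, plus strand: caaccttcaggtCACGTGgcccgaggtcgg
Glb1, chr9:114401018-114401047, plus strand: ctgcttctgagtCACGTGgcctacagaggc
Ctsa, chr2:164833749-164833778, plus strand: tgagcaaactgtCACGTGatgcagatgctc
Mcoln1, chr8:3500462-3500491, plus strand: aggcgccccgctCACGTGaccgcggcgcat
Gaa, chr11:119267811-119267840, plus strand: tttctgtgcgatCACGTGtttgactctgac
Ctsl, chr13:64370739-64370768, minus strand: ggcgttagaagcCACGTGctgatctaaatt
Gla, chrX:134601182-134601211, minus strand: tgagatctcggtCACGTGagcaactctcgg

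With dox, a subset of these genes was much lower in both fractions and a smaller subset higher, while most lay near their untreated level. By a rule of size, a 2-fold difference (1 log2 unit) in the same direction in both fractions, 7 of the 33 were lower, namely Ctsh, Gusb, Sgsh, Ctsd, Scarb2, Asah1 and Hexa. That is 21.2% of them, and 8.56% of all 12264 genes passing the filter met the same rule. Cd68, Npc1 and Ctsc were higher, 9.09% of the 33 against a background of 5.29%. Because the list was chosen with earlier results of these data known, such shares, here and below, describe the list. They are not an unbiased test of an excess. The median dox difference of the 33 was -0.28 (log2) in Sca1+ and -0.34 in Sca1- cells, where all genes passing the filter had medians of 0.03 and 0.02. Both dox differences were below 0 for 18 of the 33, 54.5% against 36.5% of all genes, and above 0 for 10, 30.3% against 41.8%. Complete separation of the arrays was common on these arrays: both dox arrays lay below both untreated arrays for 29.1% of all genes (15 of the 33) and above them for 35.2% (6 of the 33), so separation is given below as a description. With 1 array per group none of these differences has a replicate check, and in bulk RNA fewer cells of a type and less RNA per cell cannot be told apart.

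**Figure D1:**
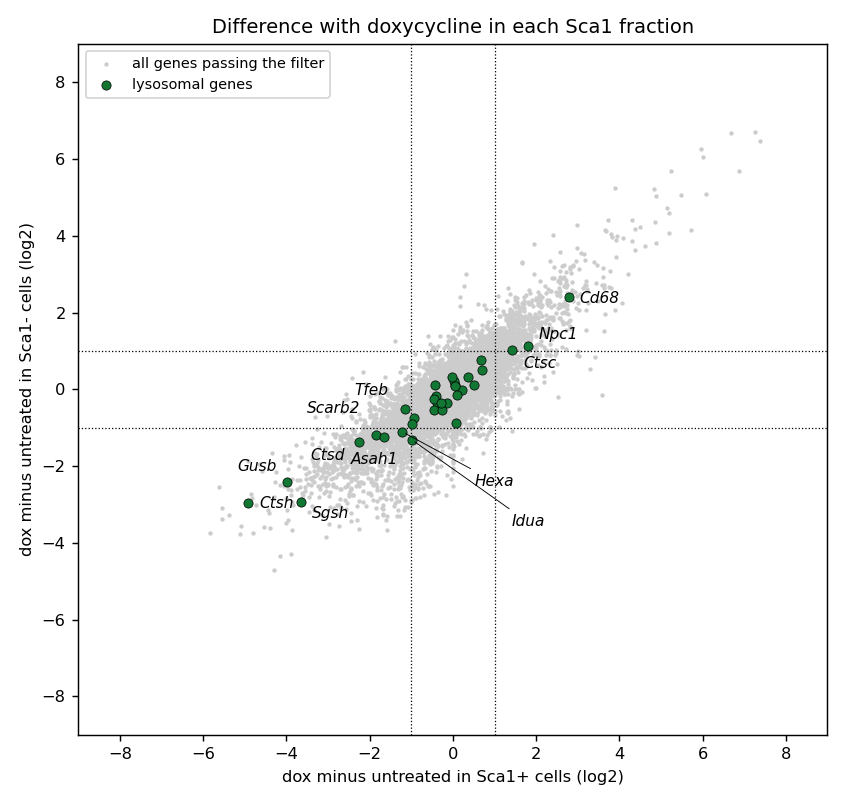
Difference in log2 level between dox and untreated cells, in Sca1+ cells on the x axis and in Sca1- cells on the y axis. Grey points are the 12264 genes passing the filter, green points the 33 lysosomal genes, and dotted lines mark 2-fold. Ctsh, Gusb and Sgsh lie far into the lower left corner and Cd68 in the upper right, and most of the other green points lie near 0.

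Some facts of the arrays bear on every value below. Levels are log2 values with a floor at 3.32, a linear level of 10, where 44.8% to 48.0% of probe sets lay on each array, and a difference against the floor is a lower bound, written "at least". Array medians were 3.48 to 3.70 over all probe sets and 8.15 to 8.19 over those with a mean linear level of 100 or more. For the actin controls, the 3′ probe set exceeded the 5′ one by 0.69 (Sca1+) and 0.81 (Sca1-) without dox (log2). With dox the excess was 0.83 and 0.91. For the Gapdh controls it was -0.10 and -0.05 without dox and -0.01 and 0.11 with it. On both controls the dox arrays thus lay above the untreated ones, and any part of this in the dox differences was not tested. As a yardstick, the dox differences of the 2 fractions lay apart by a median of 0.27 over all genes passing the filter, and by 0.87 at the 90th percentile. Levels of different probe sets were compared only to pick the brightest of a gene and in the summed macrophage and leukocyte marker level.

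Among the proteases, Ctsh and Ctsd were lower with dox and Ctsc was higher. Ctsh encodes cathepsin H, an aminopeptidase. It read 9.21 in untreated Sca1+ and 9.83 in untreated Sca1- cells, and 4.29 and 6.87 in the dox Sca1+ and dox Sca1- cells. Both dox arrays were far below both untreated arrays, by 30.3-fold in Sca1+ and 7.74-fold in Sca1- cells. Because 4.29 is close to the floor, the Sca1+ value fell to 18.5-fold when levels below 32 (5 on the log2 scale) were set to 32. Ctsd, the aspartic protease cathepsin D, read 10.38 and 10.97 in the untreated Sca1+ and Sca1- cells and 8.12 and 9.60 with dox. Again the dox arrays lay below the untreated ones without overlap, 4.79-fold in Sca1+ and 2.58-fold in Sca1- cells. Ctsc encodes cathepsin C, the dipeptidyl peptidase that activates granule serine proteases. It read 10.50 and 10.68 without dox and 11.93 and 11.71 with it, with all arrays apart, a 2.69-fold (Sca1+) and 2.04-fold (Sca1-) higher level under dox.

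The remaining proteases moved less than 2-fold. Ctsl, the endopeptidase cathepsin L, was at 11.22 and 11.06 without dox and 11.89 and 11.83 with it, differences of 0.67 and 0.77. Tpp1, the tripeptidyl peptidase that is deficient in a form of Batten disease, had differences of 0.70 and 0.50. For both, each dox array was above each untreated array. The cysteine protease genes Ctsb (0.03 and 0.23) and Ctsz (-0.14 and -0.34), and Ctsa (0.06 and 0.11), the carboxypeptidase that protects beta-galactosidase and neuraminidase, lay near their untreated levels. The 8 measured proteases therefore went in both directions, with median differences of 0.04 in Sca1+ and 0.17 in Sca1- cells.

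**Figure D2:**
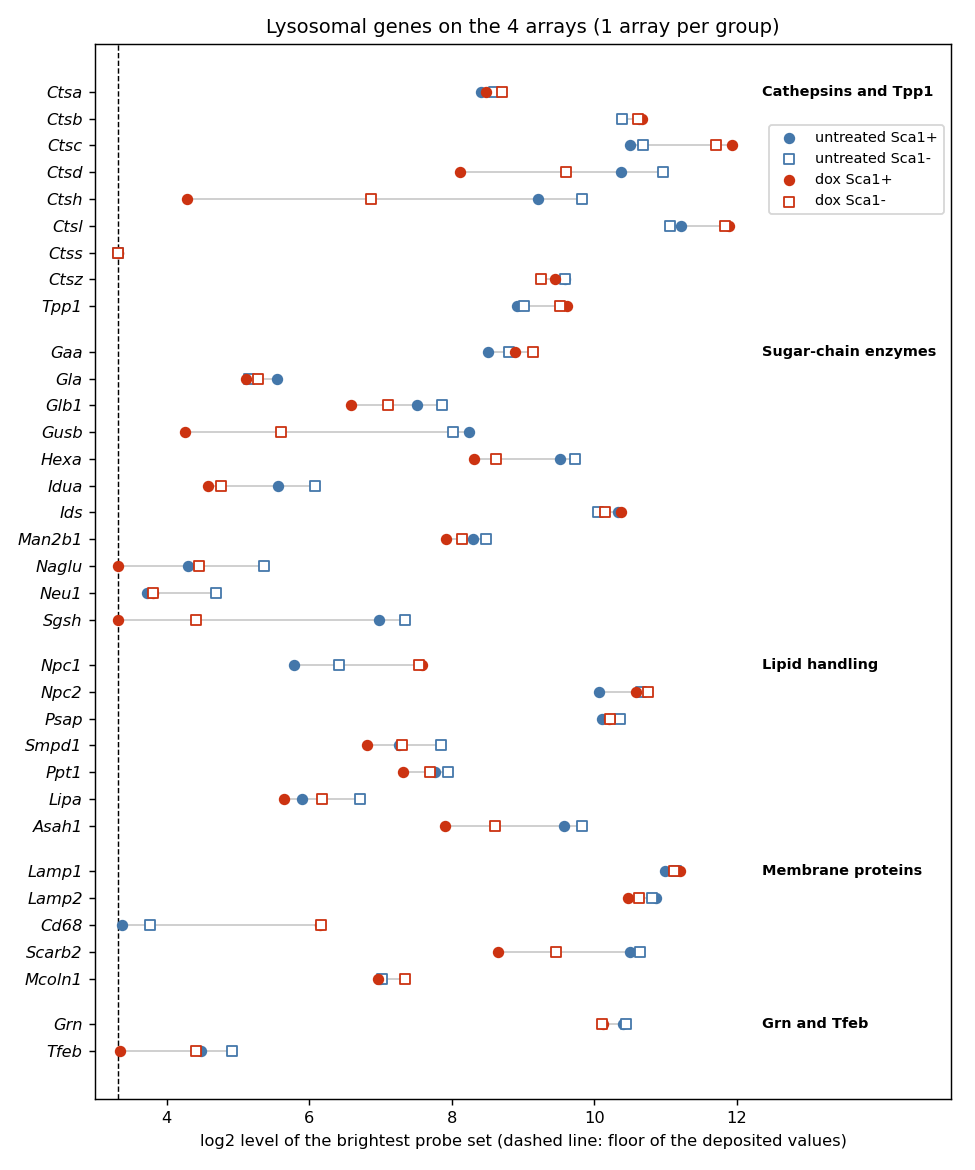
The log2 level (x axis) of the brightest probe set of each of the 34 genes found on the array, by role. Blue marks untreated and red dox cells, filled circles Sca1+ and open squares Sca1- cells, 1 array each, and the dashed line is the floor at 3.32. The red marks of Ctsh, Ctsd, Gusb, Sgsh, Asah1 and Scarb2 lie to the left of the blue ones, with dox Sca1+ lowest.

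Among 11 genes of sugar-chain breakdown, 3 met the 2-fold rule as lower with dox, namely Gusb, Sgsh and Hexa, and none as higher. The background was 8.56% lower and 5.29% higher. Differences were below 0 in both fractions for 7 of the 11, 63.6% against the 36.5% of all genes given above, with median dox differences of -0.93 in Sca1+ and -0.88 in Sca1- cells. Gusb, the beta-glucuronidase, read 8.24 in untreated Sca1+ and 8.02 in untreated Sca1- cells, and 4.26 and 5.61 with dox. It was 15.7-fold lower in Sca1+ (9.46-fold with levels below 32 set to 32) and 5.32-fold lower in Sca1- cells. Sgsh, the sulfamidase of heparan sulfate breakdown, read 6.97 and 7.35 without dox. With dox it was at the floor in Sca1+ cells and at 4.41 in Sca1- cells, at least 12.6-fold and 7.67-fold lower, which became 3.93-fold and 5.09-fold with levels below 32 set to 32. Hexa, the alpha subunit of beta-hexosaminidase, whose loss causes Tay-Sachs disease, read 9.52 and 9.72 without dox and 8.31 and 8.62 with it, 2.32-fold and 2.15-fold lower. For these 3, both dox arrays lay below both untreated arrays, as for 29.1% of all genes.

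Several sugar-chain enzymes lay just short of the size rule. Idua, the alpha-L-iduronidase, read 5.57 and 6.08 without dox and 4.58 and 4.77 with it, differences of -0.99 in Sca1+ and -1.31 in Sca1- cells. Naglu, which removes N-acetylglucosamine from heparan sulfate, read 4.30 and 5.37 without dox, and the floor and 4.46 with it, a difference of -0.98 that is a bound in Sca1+ and -0.91 in Sca1- cells. Glb1, the beta-galactosidase, read 7.52 and 7.86 without dox and 6.59 and 7.10 with it, differences of -0.93 and -0.76. Of these 3, Idua kept -0.57 and -1.08 and Naglu 0 and -0.37 with levels below 32 set to 32, and the dox Sca1- level of Naglu was above its untreated Sca1+ level.

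The other sugar-chain genes differed by less than 2-fold in each fraction. Ids, the iduronate sulfatase, was at 0.05 and 0.09, Gaa, the acid alpha-glucosidase, at 0.37 and 0.33, and Man2b1, an alpha-mannosidase, at -0.38 and -0.34. Gla, the alpha-galactosidase A, stood at -0.44 and 0.12. Neu1, the lysosomal sialidase, had a dox difference of 0.08 in the Sca1+ and -0.88 in the Sca1- fraction, from levels between 3.73 and 4.69 that lie close to the floor.

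Genes of lipid handling went both ways. Asah1, the acid ceramidase, read 9.57 in untreated Sca1+ and 9.83 in untreated Sca1- cells, and 7.91 and 8.60 with dox, 3.18-fold and 2.34-fold lower. Npc1, the membrane protein that exports cholesterol from the lysosome, read 5.79 and 6.41 without dox and 7.59 and 7.54 with it, 3.48-fold and 2.18-fold higher. Npc2, the soluble partner that hands cholesterol to Npc1, had dox differences of 0.52 (Sca1+) and 0.11 (Sca1-). A dimmer Npc2 probe set, which read 9.85 to 10.74, gave 0.57 and 0.23. Another gave 1.21 and 0.63, from an untreated Sca1+ level of 3.75 next to the floor, and a further one was at the floor on all arrays. Psap, the precursor of the saposins, was at 0.10 and -0.15. Smpd1, the acid sphingomyelinase, was at -0.45 and -0.55, Ppt1, a palmitoyl-protein thioesterase, at -0.45 and -0.24, and Lipa, the acid lipase, at -0.26 and -0.54. For Npc2, Psap, Smpd1 and Lipa the dox and untreated arrays overlapped.

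Of the 5 membrane protein genes, Scarb2 was lower and Cd68 higher. Scarb2, known as LIMP-2, is the receptor that carries beta-glucocerebrosidase to the lysosome. It read 10.50 and 10.64 in the untreated Sca1+ and Sca1- cells and 8.65 and 9.46 with dox, 3.61-fold and 2.27-fold lower. The genes of the major membrane glycoproteins, Lamp1 (0.22 and -0.02) and Lamp2 (-0.40 and -0.18), and Mcoln1 (-0.03 and 0.33), a calcium channel of the lysosome, stayed within 0.40 of their untreated levels. Their differences were thus smaller than that of Scarb2 in each fraction, and no test of that contrast was made.

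Cd68, a LAMP-family glycoprotein best known from macrophages, read 3.37 in untreated Sca1+ and 3.76 in untreated Sca1- cells, next to the floor, and 6.16 on both dox arrays. The level with dox was 6.91 times the untreated one in the Sca1+ fraction and 5.27 times in the Sca1- fraction, but these sizes rest on untreated levels next to the floor, and they were 2.23-fold in each fraction with levels below 32 set to 32. Of 17 macrophage and leukocyte marker genes, 11 were at the floor on all arrays, among them Ptprc, Itgam, Tyrobp and the C1q genes, and Adgre1 and Lyz2 did not exceed 3.65 on any. Of the 5 that passed the filter, none met the rule as higher. Both dox differences were above 0 for 2 of the 5 (41.8% of all genes) and below 0 for 1, Cd14 (36.5% of all genes). The 2 were Csf1r (0.73 and 0.11, from levels of 4.06 to 4.79) and Cd74 (0.18 and at least 0.69). The summed linear level of the 17 was 371 and 1447 in the untreated Sca1+ and Sca1- cells and 233 and 301 with dox. On the untreated arrays most of it came from Cd14, which epithelial cells can also express and which was lower with dox (-2.31 and -3.39). With dox, Cd14 read 5.35 in Sca1+ and 6.92 in Sca1- cells and no longer made up most of the sum. Each of the 11 genes at the floor adds a linear level of 10 to the sum on every array.

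Of the regulators, Tfeb lay near the floor on every array. It read 4.49 and 4.92 without dox, and 3.34 in dox Sca1+ and 4.41 in dox Sca1- cells. The dox Sca1+ level lies next to the floor, and the differences were -1.15 in Sca1+ and -0.51 in Sca1- cells, so Tfeb did not meet the rule in both fractions. All its levels lie below 32, so no difference remained when levels below 32 were set to 32. Grn, the progranulin precursor, was at -0.28 and -0.34. The relatives of Tfeb, Tfe3 (-0.51 and -0.01) and Mitf (0.11 and 0.55), which bind the same element, also missed the 2-fold rule.

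The 10 genes that met the rule by their brightest probe set were compared across all of their probe sets. The second Ctsh probe set gave -4.87 in Sca1+ and -2.99 in Sca1- cells, next to -4.92 and -2.95 for the brighter one, and the second Scarb2 probe set gave -1.75 and -0.98. For Ctsc, the dimmer probe sets gave larger differences, 4.29 and 3.76 for one and 4.78 and 4.09 for the other, against 1.43 and 1.03 for the brightest. All 3 Ctsc probe sets were higher with dox in both fractions, but the size of the difference depends on the probe set. The second Sgsh probe set stood between 3.32 and 3.88 on all arrays and gave 0.31 and 0.49, and the second Gusb probe set stood between 3.32 and 3.62. Both lie next to the floor. Cd68, Npc1, Hexa, Asah1 and Ctsd have 1 probe set each. Of the genes that missed the rule, Tpp1 had a dimmer probe set with differences of 1.08 and 0.87 and Npc2 one with 1.21 and 0.63, each past 2-fold in Sca1+ cells only. That Npc2 probe set read 3.75 in untreated Sca1+ cells, next to the floor.

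**Figure D3:**
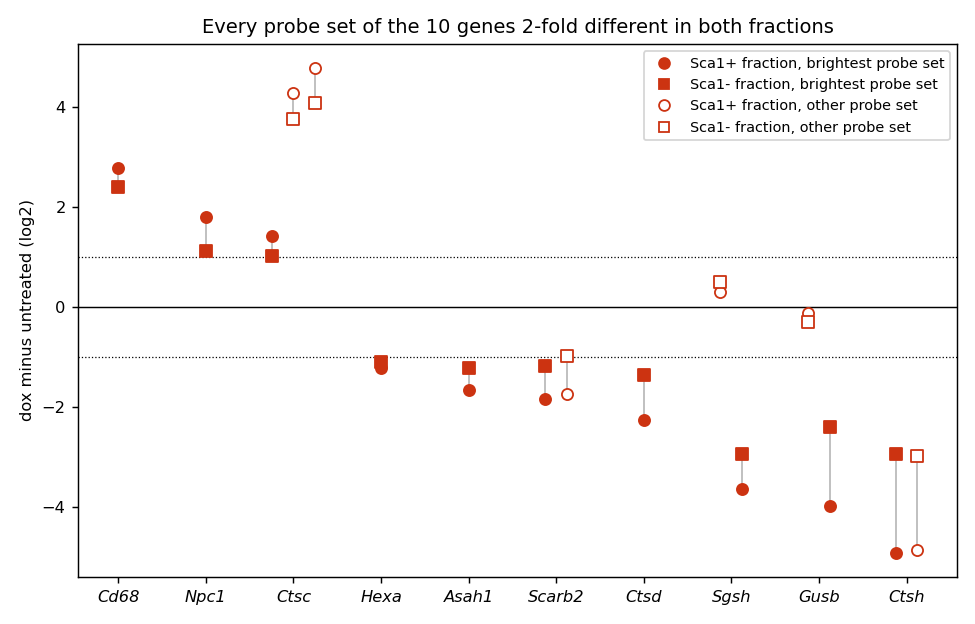
Difference in log2 level between dox and untreated cells for every probe set of the 10 genes that met the 2-fold rule. Circles are Sca1+ and squares Sca1- cells, filled for the brightest probe set and open for the others. The Ctsh probe sets lie together, those of Ctsc are all above 1 but spread to 4.78, and the dim Sgsh and Gusb probe sets lie near 0.

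An additive limma fit over all 12264 genes, with a term for dox and a term for Sca1, treats the fractions as repeat samples of the dox difference. It leaves 1 residual degree of freedom, and the labels do not say whether both fractions were sorted from 1 culture, so the fractions may not be independent samples. Its variances are borrowed largely from other genes of like level, with 14.4 prior degrees of freedom against the 1 of the gene itself, and a small p is not evidence that the fractions gave alike values. Ctsh, with the widest gap between fractions among the 33, had the smallest p. In that fit all 10 genes passed a Benjamini-Hochberg adjusted p of 0.05, with adjusted p from 4.41e-08 for Ctsh to 2.76e-05 for Npc1. The mean dox differences were -3.94 (SE 0.29) for Ctsh, -3.19 (SE 0.28) for Gusb and 2.59 (SE 0.31) for Cd68. For Sgsh the mean was -3.30 (SE 0.29). That value is a bound, because the dox Sca1+ level of Sgsh lies at the floor, and its SE does not account for the floor. In all, 12 of the 33 genes passed as lower, 36.4% against a background of 21%, and 6 as higher, 18.2% against 19.7%. The share of higher genes was thus close to that among all genes. Beyond the 10, Glb1, Idua, Naglu, Smpd1 and Man2b1 were lower and Ctsl, Tpp1 and Gaa higher. Without the trend in the variance, 10 were lower (background 14.8%) and 4 higher (background 11.9%), and the 10 genes of the size rule were all among these 14.

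For each of the 7 genes that were lower in both fractions, the difference was larger in Sca1+ than in Sca1- cells. The Sca1+ difference minus the Sca1- difference was -1.97 (log2) for Ctsh, -1.56 for Gusb and -0.89 for Ctsd, and only -0.11 for Hexa. For Sgsh the order rests on the floor, since with levels below 32 set to 32 the differences were -1.97 in Sca1+ and -2.35 in Sca1- cells. Of all 1050 genes that were 2-fold lower in both fractions, 70.6% had the larger difference in Sca1+ cells, so this order was common on these arrays and is not read as a property of the lysosomal genes. The 3 genes that were higher also had the larger difference in Sca1+ cells, as did 55.6% of the 649 higher genes. Whether the fractions differ in their response was not tested, because it would need replicates.

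At 2-fold, 1 of these genes differed between the Sca1+ and Sca1- fractions without dox and 6 with it. Without dox, Naglu was the 1 gene of the 33 that differed by 2-fold, 2.09-fold lower in Sca1+ cells, against a background of 3.33% of all genes lower and 3.07% higher. With dox, 6 of the 33 were 2-fold lower in Sca1+ than in Sca1- cells, 18.2% against a background of 2.98%, and none was higher (background 2.52%). These were Ctsh (5.99-fold), Ctsd (2.79-fold), Gusb (2.54-fold), Naglu (at least 2.20-fold), Sgsh (at least 2.13-fold) and Tfeb (2.09-fold, from a dox Sca1+ level of 3.34 next to the floor). Naglu was thus the 1 gene past 2-fold in both Sca1 comparisons, where 0.881% of all genes were lower and 1.08% higher. The 6 differences use the dox arrays of the comparison above and are the same measurements read the other way. With levels below 32 set to 32, of the 6 Ctsd (2.79-fold) and Ctsh (3.66-fold) kept a 2-fold difference, Gusb was at 1.53-fold, and Naglu, Sgsh and Tfeb showed none.

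**Figure D4:**
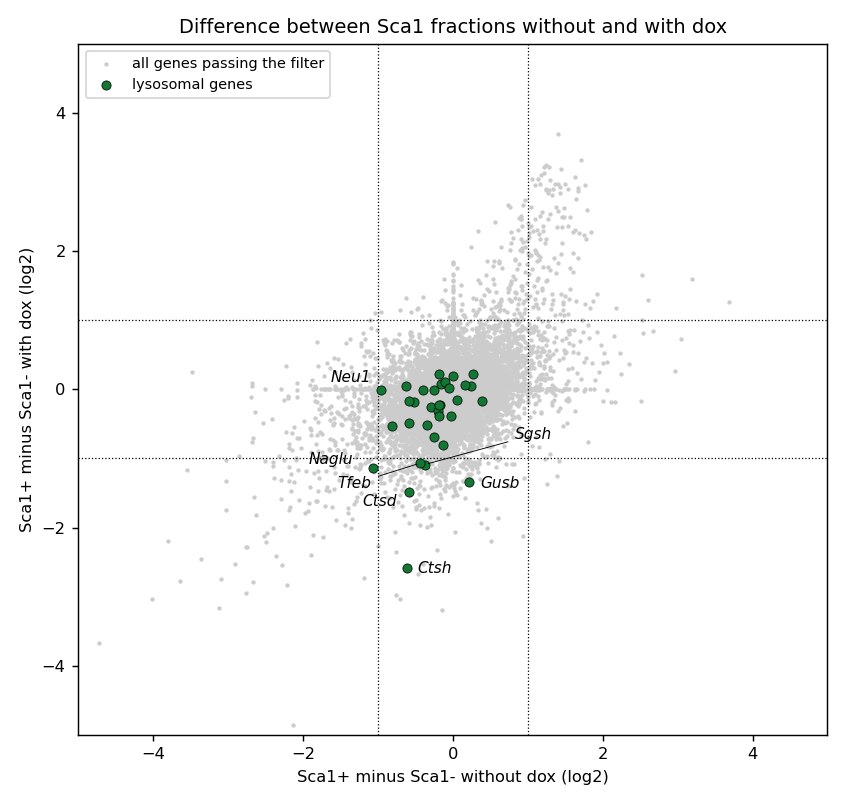
Difference in log2 level between Sca1+ and Sca1- cells, without dox on the x axis and with dox on the y axis. Grey points are the 12264 genes passing the filter, green points the 33 lysosomal genes, and dotted lines mark 2-fold. Ctsh, Ctsd and Gusb lie below the lower dotted line but between the vertical ones, and Naglu lies just past 2-fold on both axes.

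As deposited, small Sca1 differences were mostly below 0. Without dox 27 of the 33 were below 0 and with dox 24, and 21 were below 0 both times, 63.6% against 34.6% of all genes. This count rests on small differences, and it was 15 when arrays were centred on the median of all probe sets. The median Sca1 difference was -0.20 without dox (0.02 after that centring) and -0.22 with dox, where all genes had -0.01 and -0.03. Lipa had differences of -0.81 and -0.53, Smpd1 of -0.59 and -0.49, and Glb1 of -0.34 and -0.51. Ids was higher in Sca1+ cells by 0.27 and 0.23. In the additive limma fit, Ctsd, Ctsh and Asah1 passed an adjusted p of 0.05 as lower in Sca1+ cells (adjusted p of 0.000742, 0.00222 and 0.0385), 9.09% of the 33 against a background of 3.64%, and none passed as higher (background 3.87%). Without the trend in the variance none of the 33 and none of the 12264 passed, with 7 of the 33 at an unadjusted p under 0.05, so these calls depend on that setting.

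Related lists of lysosomal genes had median dox differences within 0.20 of 0, with a few members that met the 2-fold rule. Among all genes passing the filter, 8.56% met that rule as lower and 5.29% as higher. Of 26 further hydrolases, activators and related genes that passed the filter, 4 were lower with dox in both fractions and none higher, with median differences of -0.18 and -0.17. Arsb, the arylsulfatase B of dermatan sulfate breakdown, was lower by 3.56 in Sca1+ and 2.55 in Sca1- cells, although its dimmer probe sets, near the floor, gave -0.69 to -0.33. Manba, a beta-mannosidase (-1.85 and -1.39), Hyal2, a hyaluronidase (-1.33 and -1.28), and Ctso, cathepsin O (-1.76 and -1.20), were the others. The dox Sca1+ level of Manba, 4.09, lies near the floor. Ctsk, cathepsin K, was at the floor on all arrays.

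Genes of the proton pump and of the sorting machinery differed in both directions, mostly by less than 2-fold. Of 17 V-ATPase genes, whose pump acidifies the lysosome, 2 were higher and none lower, Atp6v0a2 (1.18 and 1.06) and Atp6v1e1 (1.25 and 1.00), and the medians were 0.20 and 0.02. Both differences were below 0 for 5 of the 17, among them the accessory subunits Atp6ap1 (-0.64 and -0.65) and Atp6ap2 (-0.49 and -0.39), and above 0 for 9. Among all genes, 36.5% were below 0 and 41.8% above 0 in both fractions. By the 2-fold rule, 8.56% of all genes were lower and 5.29% higher. Of 12 genes of mannose 6-phosphate tagging and sorting, only Ap1m1, an adaptor subunit, met the rule, at 1.30 and 1.23. The receptors themselves, Igf2r (0.08 and -0.36) and M6pr (-0.46 and -0.38), did not. Of 17 further membrane proteins, Mfsd8 was higher (1.73 and 1.51) and none was lower. The size for Mfsd8 rests on untreated levels of 3.86 and 4.68 near the floor. Its dimmer probe set gave at least 0.81 in Sca1+ and 0.82 in Sca1- cells, short of the rule. Of 16 genes of the TFEB relatives and of the Ragulator and mTORC1 machinery that holds them at the lysosome, Fnip2 was lower (-1.47 and -1.27) and none was higher.

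Autophagy genes and protease inhibitors held single large differences in both directions. Of 25 autophagy genes, 1 was higher and 3 lower, with medians of 0.23 and 0.25. By the same rule 5.29% of all genes were higher and 8.56% lower. Gabarapl1, an ATG8 protein of the autophagosome membrane, was higher by 2.42 and 2.20, and a second probe set gave 2.35 and 2.27. Wipi1, a phosphoinositide-binding protein of autophagosome formation, was at -2.52 and -1.75, Bnip3, a mitophagy receptor, at -1.79 and -1.24, and Uvrag at -1.43 and -1.04. Over the 6 Wipi1 probe sets the Sca1+ difference ran from -3.07 to -0.09 and the Sca1- difference from -1.75 to 0.06. The probe set with -0.09 and 0.06 read 5.22 to 5.54, above the floor, so the fall was not shared by all of them. Sqstm1, the cargo receptor p62, was at -0.11 and -0.30. Among 7 inhibitor genes, Cst3, the secreted cathepsin inhibitor cystatin C, was higher by 1.27 and 1.44, Csta1, a stefin, by 3.82 and at least 3.96, and Stfa3 by at least 2.54 and at least 1.44. Stefins form a family of near-identical copies, so the Csta1 and Stfa3 signals may be shared. Cst6, cystatin E/M, was lower by at least 1.45 in Sca1+ and by 1.31 in Sca1- cells.

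**Figure D5:**
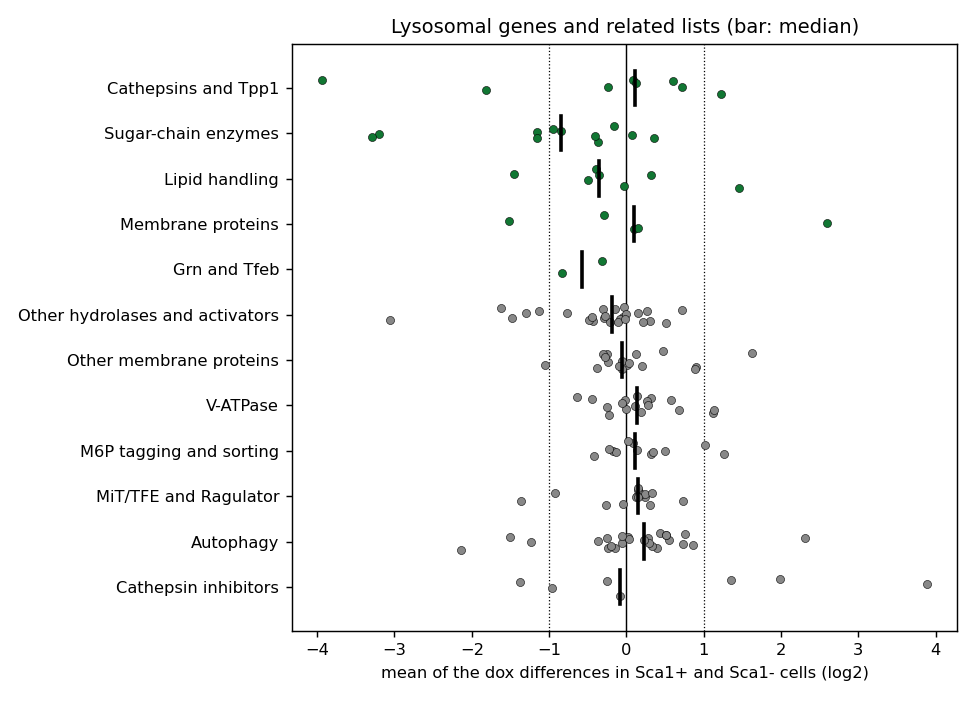
Mean of the dox differences in Sca1+ and Sca1- cells (log2, x axis) for each gene passing the filter, with black bars at list medians and dotted lines at 2-fold. Green points are the lysosomal genes by role and grey points the genes of related lists. The sugar-chain enzymes have the points farthest left after Ctsh, and the medians of the V-ATPase and sorting lists lie within 0.20 of 0.

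The CACGTG core and the dox difference were set side by side. Of the 5 genes lower in both fractions that have a promoter window, Ctsd and Sgsh held the core, and Gusb, Hexa and Scarb2 did not. Of the 2 higher genes with a window, Cd68 and Ctsc, neither held it, and 8 of 22 that missed the rule did. For the 10 genes with the core, mean dox differences ran from -3.30 (Sgsh, a bound) to 0.72 (Ctsl), with a median of -0.04. For 19 analysed genes without it they ran from -3.19 to 2.59, with a median of -0.35. Ctsa, Mcoln1 and Lamp1, whose sites are printed above, had dox differences between -0.03 and 0.33. Of the other genes with the core besides Ctsd and Sgsh, Glb1 (-0.93 and -0.76) and Naglu (-0.98, a bound, and -0.91) were below 0. Ctsl (0.67 and 0.77) and Gaa (0.37 and 0.33) were above 0, and Gla (-0.44 and 0.12) differed in sign between the fractions. A match is a description of the sequence, and binding was not measured here.

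Other differences ran alongside on the same arrays. Of 7 proliferation genes, 5 were 2-fold lower with dox in both fractions, against 8.56% of all genes. The proliferation list had medians of -1.21 in Sca1+ and -2.81 in Sca1- cells. Of 10 mammary epithelial markers, 4 were lower in both fractions, namely Krt5, Krt7, Krt8 and Cldn7. Their part in the lower Ctsh, Gusb, Sgsh, Ctsd, Scarb2, Asah1 and Hexa levels was not tested.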

How the data were processed

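Expression was measured on 4 Affymetrix arrays, 1 per group, from biotin-labelled RNA (3′ IVT protocol, per the labels). The deposited table gives log2 levels for 45101 probe sets. The sources used here do not give how the authors summarized and scaled them. All columns share a minimum of 3.32. Genes were named from the platform annotation, which lists 34958 probe sets with 1 symbol, 932 with several and not the remaining 9211. The brightest probe set represented each gene (18194 genes), and genes with an array at or above the pooled median (12264) were analysed. Differences of log2 levels were described by a 2-fold rule without a test. limma 3.58.1 (additive model, eBayes with trend, Benjamini-Hochberg over all 12264) was an alternative, and its script was tested on simulated data. The genes to be named were all members of the list and, from related lists, up to 4 that met the rule in both fractions plus a few set by name. Members and lists were chosen with earlier results of these data known.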

Additional observations from a re-analysis of the deposited data

How the results depend on the processing

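The counts of 3 genes higher and 7 lower with dox ranged from 2 to 4 and from 7 to 10 over both centrings, averaged probe sets, a floor at 32, a filter at 100 and a 1.5-fold rule. Ctsc was lost by centring on bright probe sets (0.997 in Sca1- cells) and Cd68 by the filter at 100, and centring on all probe sets added Idua. That centring moved the median of all genes from 0.03 to -0.16 for dox in Sca1+ cells and from -0.01 to 0.21 for Sca1 without dox, and moved the genes' median Sca1 difference without dox to 0.025. The 1 gene that differed between fractions with and without dox (Naglu) became 3 by the 1.5-fold rule and 0 with that centring, with the floor at 32 and with the filter at 100. The 6 genes lower in dox Sca1+ than dox Sca1- cells became 2 with the floor at 32. Without the variance trend, a choice made after seeing the data, limma's 3 Sca1 calls became 0. Of 628 single differences recomputed, 543 moved by less than the fit's typical SD of 0.197 and 85 by more. None of the differences past 2-fold changed sign. Of the 543, the 108 under the filter at 100 could not move, because that filter leaves values unchanged. Each centring shifts all genes of a comparison by the same amount, so its values do not speak for single genes. No pairing by replicate number was possible because each group has 1 array, and the additive fit takes the fraction as its block. The floor limits Sgsh, Naglu, Tfeb, Neu1, Idua and Cd68, and the sizes of Ctsh and Gusb in Sca1+ cells. From the related lists, it also limits Mfsd8, Manba, Cst6, Csta1 and Stfa3.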
